A study of Arabidopsis thaliana with 45 samples.

Results

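The nitrilase family of Arabidopsis thaliana has 4 members, NIT1 (AT3G44310), NIT2 (AT3G44300), NIT3 (AT3G44320) and NIT4 (AT5G22300), and they are 4 of the 28545 genes counted in these 45 libraries. The family was taken up because NIT2 changed in opposite directions in roots and leaves, that is, it was selected on the fold changes of NIT2 over the time course and on the clinostat. Those values are given without a test, and an SE or interval beside them is a description only. NIT1, NIT3 and NIT4 came with it by gene ID and were tested in every comparison.

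All plants were Columbia-0 (Col-0) wild type seedlings, 7 days old, that had been kept 8 h in the dark within an otherwise 24 h light regime. They were fixed in RNAlater, inside a KSC Fixation Tube (KFT) or, for plate plants, without one. A KFT is a sealed tube that carries plants on a coupon of solid medium and releases fixative onto them on command. Clinorotation turns plants slowly so that gravity has no constant direction. Groups are named as in the study, with R for roots and L for leaves. Times are those of the labels, and the study's text gives a slightly shorter rest before Q1, times the later groups from a mock launch and in one place starts the rotation earlier. Clinostat plants (CR, CL) spent 4 h 14 min in a KFT and were then rotated for 4 min. The time course had KFT plants fixed at 4 h (Q1R, Q1L), at 4 h 14 min (Q2R, Q2L), at 4 h 18 min (Q3R, Q3L) and at 4 h 28 min (Q4R, Q4L). Roots of 4 further KFTs were fixed at 4 h (Q1A, Q1B, Q1C and Q1D), and their reference was roots of plants that stayed on a Petri plate (Q1P). Each of the 15 groups had 3 libraries, each made from a pair of plants together, and all libraries in a group came out of 1 vessel. A Q4L library, replicate 1, carries Q3 in its source name but Q4 in its title and treatment, and was taken as Q4L. Vessel and condition cannot be told apart within a group, and p-values measure the spread between libraries of a vessel.

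Nitrilases hydrolyse a nitrile to its carboxylic acid and ammonia through a catalytic cysteine. NIT1, NIT2 and NIT3 belong to a branch found in the cabbage family. In vitro they act on nitriles that arise from glucosinolates, and they turn indole-3-acetonitrile into the auxin indole-3-acetic acid, a route held to be minor beside the main one through indole-3-pyruvate. NIT4 belongs to the branch shared by flowering plants. Its substrate is beta-cyanoalanine, which is made when the cyanide released during ethylene synthesis is bound to cysteine. NIT3 is known to be induced by sulfur starvation, and NIT2 by pathogens and in ageing leaves.

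The libraries held 29203427 to 117091661 counted reads, with a median of 50467925, and no 2 libraries were identical. The tissue labels held. The 10 leaf markers were each higher in every leaf library than in any root library, and their summed level was 211 to 971 CPM in roots and 41669 to 69242 CPM in leaves, where CPM stands for the reads of a gene scaled to equal library totals. The summed level of the 10 root markers was 747 to 1356 CPM in roots and 40.9 to 76.6 CPM in leaves, and 9 of the 10 were lower in every leaf library than in any root library. At these depths NIT1 had at least 8522 counted reads in every library. The lowest count was 69 for NIT2 and 109 for NIT3, both in leaves, and NIT4 had between 0 and 190 reads in roots. In whole organs, fewer cells that express a gene and less of its RNA per cell cannot be told apart.

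NIT2, NIT1 and NIT3 lie in that order on the forward strand of chromosome 3, within 12613 bases. In the RefSeq annotation of TAIR10.1 the genes span chr3:15983199-15985535 (NIT2), chr3:15986624-15989505 (NIT1) and chr3:15993259-15995811 (NIT3), with 1088 bases between NIT2 and NIT1 and 3753 bases between NIT1 and NIT3. NIT4 is on chromosome 5 (chr5:7379187-7382025). Each gene has 5 exons. The coding sequences of NIT1 and NIT2 were 91.4% identical, those of NIT1 and NIT3 88.1% and those of NIT2 and NIT3 87.4%, whereas NIT4 was 74.0% to 75.1% identical to the others. The stretch of exon 3 around the codon of the catalytic cysteine, whose first base is base 46 of each line, shows how alike the copies are. It lies at chr3:15988132-15988224 in NIT1, chr3:15984458-15984550 in NIT2, chr3:15994776-15994868 in NIT3 and chr5:7381055-7381147 in NIT4, and capitals mark the bases that differ from NIT2.
NIT1: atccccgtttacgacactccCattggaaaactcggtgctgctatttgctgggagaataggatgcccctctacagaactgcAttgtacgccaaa
NIT2: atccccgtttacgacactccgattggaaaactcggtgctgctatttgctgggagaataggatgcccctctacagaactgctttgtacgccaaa
NIT3: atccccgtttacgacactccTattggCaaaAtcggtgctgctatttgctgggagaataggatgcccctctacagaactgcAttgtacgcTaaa
NIT4: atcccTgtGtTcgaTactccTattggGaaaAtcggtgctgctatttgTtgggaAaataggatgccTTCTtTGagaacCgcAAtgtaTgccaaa
Over these 93 bases NIT1 differed from NIT2 at 2 positions, NIT3 at 5 and NIT4 at 19. The counts of such copies depend on how far a read can tell them apart. Of all 100-base words of the transcripts, 5 of 1436 in NIT2 and 5 of 1883 in NIT1 also occurred in another member, NIT3 and NIT4 had 0, and no member shared any word of 150 bases, the length of each read before trimming. Trimmed reads can be shorter. Of 50-base words, 95 of 1933 in NIT1, 86 of 1486 in NIT2, 9 of 1470 in NIT3 and 0 of 1494 in NIT4 were shared. Only reads that mapped to 1 place were counted, so reads that match both copies equally well would be missing from both. Whether any reads moved between copies was not tested.

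The 200 bases before each annotated start are less alike than the coding sequences and are shown because the 3 neighbours differed in level between roots and leaves. They are chr3:15986424-15986623 for NIT1, chr3:15982999-15983198 for NIT2, chr3:15993059-15993258 for NIT3 and chr5:7378987-7379186 for NIT4, all on the forward strand, with matches to 6 short motifs in capitals.
NIT1: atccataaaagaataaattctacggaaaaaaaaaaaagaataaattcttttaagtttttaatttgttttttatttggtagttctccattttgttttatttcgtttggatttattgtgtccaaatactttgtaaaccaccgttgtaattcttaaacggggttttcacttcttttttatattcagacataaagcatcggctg
NIT2: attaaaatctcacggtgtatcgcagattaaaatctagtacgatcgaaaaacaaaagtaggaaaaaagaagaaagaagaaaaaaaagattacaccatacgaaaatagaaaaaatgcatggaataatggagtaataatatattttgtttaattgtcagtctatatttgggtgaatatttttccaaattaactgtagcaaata
NIT3: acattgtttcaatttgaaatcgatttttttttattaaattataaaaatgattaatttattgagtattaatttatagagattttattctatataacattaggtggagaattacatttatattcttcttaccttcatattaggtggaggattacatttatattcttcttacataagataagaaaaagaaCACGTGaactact
NIT4: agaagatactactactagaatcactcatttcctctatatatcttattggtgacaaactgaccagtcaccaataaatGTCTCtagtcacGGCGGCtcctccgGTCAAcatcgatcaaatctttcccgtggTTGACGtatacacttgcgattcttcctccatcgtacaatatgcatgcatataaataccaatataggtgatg
The motifs, searched on both strands, were the W-box core TTGAC, the as-1 core TGACG, the abscisic acid element core ACGTG, the G-box CACGTG, the core of the sulfur-responsive element GAGAC and the GCC-box GCCGCC. Over 27443 upstream regions of the same length they occurred in 38.7%, 15.7%, 19.8%, 5.64%, 21.6% and 1.46% of regions, in that order. NIT1 and NIT2 held none of them. NIT3 held a G-box, which contains both of its matches to the abscisic acid element, 13 bases before the start. NIT4 held the W-box core at 2 places, one overlapping its only as-1 core, and 1 match each to the GCC-box and the sulfur-responsive core. A match is a description of these letters and not a binding site.

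In roots the 3 neighbours were of one order of magnitude, whereas in leaves NIT1 stood far above the rest. Per kilobase of transcript, the 30 root libraries had 157 ± 32.6 CPM of NIT1, 93.4 ± 21.2 of NIT2, 83.8 ± 15.3 of NIT3 and 0.404 ± 0.380 of NIT4 (SD). The 15 leaf libraries had 305 ± 102 CPM per kilobase of NIT1, 19.6 ± 39.7 of NIT2, 6.0 ± 2.20 of NIT3 and 6.83 ± 1.87 of NIT4. The sum of the family on this scale was similar in the 2 tissues, with 335 ± 56.8 CPM per kilobase in roots and 337 ± 131 in leaves. This match depends on the scaling and on the transcript chosen for each gene. With TMM-normalized library sizes mean NIT1 was 381 in place of 413 CPM in Q2R and 910 in place of 753 CPM in Q3L. The NIT1 transcript used has 1982 bases, against 2471 over all its annotated exons. Of that sum NIT1 made up 46.8% ± 3.89 in roots and 91.8% ± 6.04 in leaves. NIT2 made up 27.8% ± 3.6 in roots, against a median of 1.54% in leaves, where single libraries ran from 0.352% to 25.3%. The share of NIT3 was 25.3% ± 3.78 in roots and 1.96% ± 0.734 in leaves, and that of NIT4 was 0.121% ± 0.107 in roots and 2.25% ± 0.992 in leaves. Shares add up to the whole, so a change of 1 member moves the others.

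**Figure D1:**
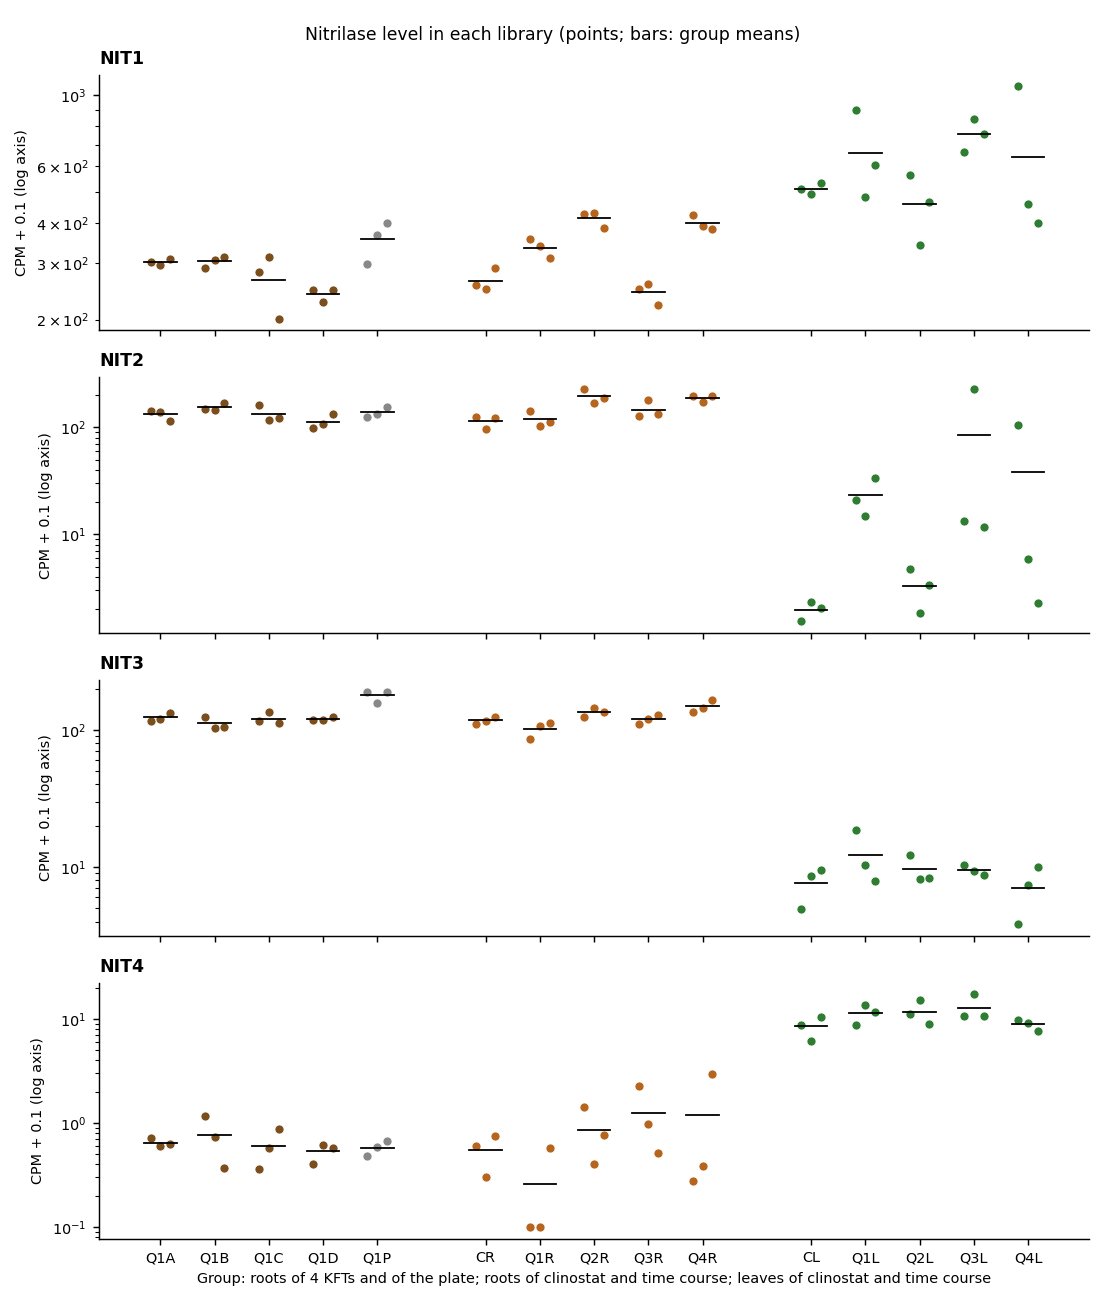
CPM of each member plus 0.1 on a log axis for all 45 libraries, with a point for each library and a bar for each group mean. NIT3 and NIT4 separate the root groups from the leaf groups, and NIT2 spreads from 1.44 to 229 CPM over the leaf libraries.

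**Figure D2:**
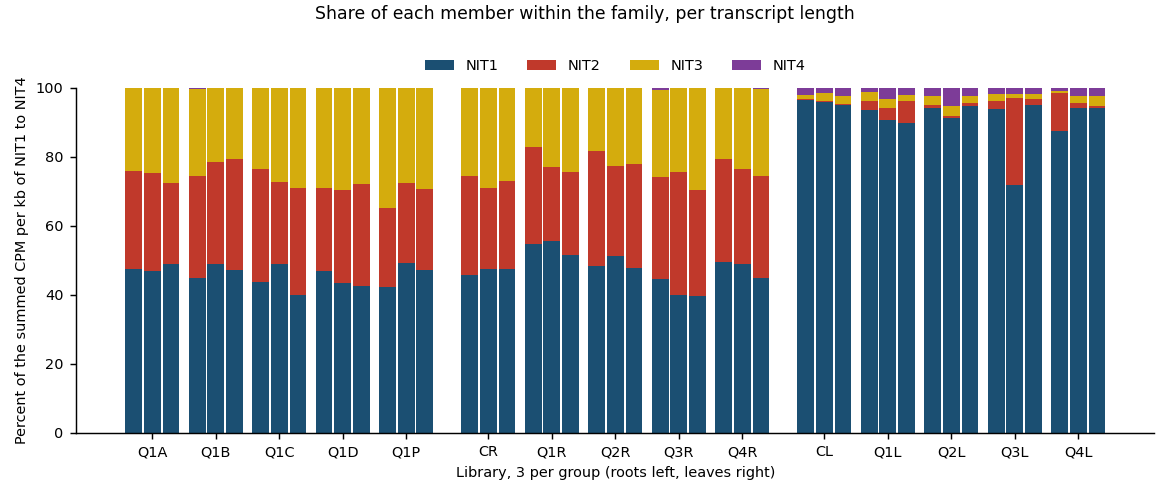
Percent of the summed CPM per kilobase of transcript that each member made up, with 1 stacked bar for each library and 3 libraries for each group. NIT1 made up 46.8% on average in roots and 91.8% in leaves, and NIT2 stands out in 1 library of Q3L (25.3%) and 1 of Q4L (11.2%).

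All 4 members differed between roots and leaves of the same KFTs over the 15 root and 15 leaf libraries of the time course and clinostat, in a fit that also held the condition (edgeR, adjusted p over all genes). NIT2 and NIT3 were higher in roots, and NIT1 and NIT4 were lower in roots. The tissues differ widely, since 74.8% of the 22980 genes tested were called in this comparison, 38.9% as higher and 35.9% as lower in roots. NIT3 averaged 13.6 times as much CPM in roots as in leaves, and the lowest root library, at 85.4 CPM, lay above the highest leaf library, at 18.5 CPM. Its log2 fold change was 3.46 ± 0.15 (SE, adjusted p = 1.51e-18). NIT2 averaged 5.07 times as much in roots as in leaves, with a log2 fold change of 2.96 ± 0.66 (adjusted p = 2.16e-04), but the ranges overlapped, because a leaf library of Q3L reached 229 CPM and one of Q4L 105 CPM. Without these libraries, a choice made after seeing the data, the log2 fold change was 4.35. They were left out for their high NIT2, so the larger value follows from that choice and is a description only. NIT1 averaged 1.83 times as much in leaves as in roots, with a log2 fold change of -1.22 ± 0.15 for roots over leaves (adjusted p = 3.89e-08), and its ranges overlapped. NIT4 had 0 to 2.83 CPM in roots and 6.08 to 17.1 CPM in leaves, where its mean was 14.6 times as high, and its log2 fold change was -4.38 ± 0.49 (adjusted p = 3.11e-09). The median log2 fold change of all genes was 0.05.

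The ratios of group means were also taken by condition. NIT3 was 8.32 times as high in roots as in leaves at Q1, 14.1 at Q2, 12.7 at Q3, 21.3 at Q4 and 15.4 on the clinostat. NIT1 was higher in leaves in each condition, by 1.97 times at Q1, 1.11 at Q2, 3.1 at Q3, 1.61 at Q4 and 1.93 on the clinostat. For NIT2 the ratio of roots to leaves was 5.15 at Q1, 61.0 at Q2, 1.74 at Q3, 4.97 at Q4 and 60.4 on the clinostat, the widest range of the family. A single leaf library set the ratio at Q3 and at Q4, and the one at Q4 carries Q3 in its source name. In a step added after seeing the data, the NIT2 ratio was 11.8 at Q3 without Q3L replicate 2 and 47.2 at Q4 without Q4L replicate 1, and NIT1 was then 1.08 times as high in leaves at Q4. NIT4 was higher in leaves in each condition, by 7.98 to 70.3 times. The ratio of 70.3, at Q1, rests on 35 reads in 1 root library and 0 in the others, where 3 reads would have been 0.0594 and 0.0437 CPM.

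Genes that make the substrates of the family also differed between the tissues. In the branch from indole-3-acetonitrile to camalexin, 6 of 9 genes tested were higher in roots and 0 lower. They were led by AAO1, an aldehyde oxidase (log2 fold change 3.02), PAD3, which makes camalexin (2.56), and CYP79B2, which makes indole-3-acetaldoxime (1.95). Of 15 genes for indole glucosinolates, 13 were higher in roots and 2 lower, with CYP81F4, which hydroxylates the indole ring, at 8.20 and MYB122, a regulator of the pathway, at 5.02. Of 14 genes for glucosinolate breakdown, 7 were higher and 7 lower in roots. The myrosinases TGG2 and TGG1, which cleave glucosinolates, were at -11.12 and -10.55, and their root counterparts TGG5 and TGG4 at 7.86 and 6.74. For the cyanide branch that feeds NIT4, 6 of 11 were higher and 5 lower in roots. The ethylene-forming oxidases were split, with ACO5 at 6.23, ACO3 at 2.73 and ACO4 at -4.35, and CYSC1, the mitochondrial beta-cyanoalanine synthase, was lower in roots at -1.40. Of 14 sulfur starvation genes 12 were higher and 1 lower in roots, with the sulfate transporter SULTR1;1 at 7.32. Of 5 other members of the carbon-nitrogen hydrolase superfamily, 1 was higher and 3 were lower in roots, between -0.44 for a deaminated glutathione amidase and 1.58 for beta-ureidopropionase. These counts stand beside the 74.8% of all genes called.

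NIT2 in leaves was the most variable level in the family. The 3 libraries of CL had 1.44, 2.25 and 1.97 CPM. The Q1L libraries had 21.0, 14.7 and 33.6 CPM and those of Q2L 4.61, 1.76 and 3.25 CPM. Those of Q3L had 13.4, 229 and 11.6 CPM and those of Q4L 105, 5.79 and 2.17 CPM. The CL and Q2L libraries were low and close together, and a single library stood far above its group in each of Q3L and Q4L. From the lowest to the highest leaf library NIT2 varied 159-fold, against 3.13-fold for NIT1, 4.96-fold for NIT3 and 2.81-fold for NIT4. Without these 2 libraries NIT2 still varied 23.4-fold over 13 leaf libraries. In all 30 root libraries it varied 2.38-fold, close to NIT1 at 2.13-fold and NIT3 at 2.22-fold.

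The 2 leaf libraries with much NIT2 held no surplus of root markers. Their summed root markers were 42.8 CPM in Q3L replicate 2 and 40.9 CPM in Q4L replicate 1, the 2 lowest sums among the 15 leaf libraries, and their leaf markers summed to 64566 and 69242 CPM. NIT1 had its highest level of all libraries in Q4L replicate 1, at 1064 CPM, and was at 839 CPM in Q3L replicate 2. NIT3, at 3.73 and 9.21 CPM in these libraries, was not raised with them. NIT2 made up 25.3% of the family in Q3L replicate 2 and 11.2% in Q4L replicate 1.

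The genes whose leaf levels ran most closely with those of NIT2 were of several kinds. Over the 15 leaf libraries, compared on log2(CPM + 1) after seeing the data among 18197 genes, Pearson's r with NIT2 was highest for PPDK, pyruvate orthophosphate dikinase (0.96). ALDH7B4, an aldehyde dehydrogenase known to respond to water stress, and AT4G33150, the enzyme that starts lysine breakdown, both had an r of 0.95. PPDK had 486 CPM in Q3L replicate 2 and 320.3 CPM in Q4L replicate 1, against 83.2 to 256 CPM in the other 13 leaf libraries. ALDH7B4 had 526 and 588 CPM in these libraries and 41.0 to 199.97 CPM in the others. AT4G33150 had 249 and 127 CPM, against 24.6 to 107 CPM. The others of the 8 most alike were AT4G37520, AT3G46690, AT4G15610, PMT6 and AT5G39520. AT5G39520, at 0.96, had 34.7 and 29.9 CPM, against 0 to 6.10 CPM. These genes were picked for their likeness to NIT2 over the same libraries, so their levels in the 2 libraries with much NIT2 follow from that choice and are a description. Among the members NIT1 had an r of 0.80 with NIT2 in leaves and NIT3 one of -0.07. The points share their libraries and 3 of them at a time share a KFT, and the 2 high libraries carry much of these values. Q4L replicate 1 was also the library of lowest depth in the series, with 29203427 reads, and Q3L replicate 2 had 54634588. Q4L replicate 1 is also the library that carries Q3 in its source name. The part that depth, this label or handling of these plants had in their NIT2 level was not tested.

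**Figure D3:**
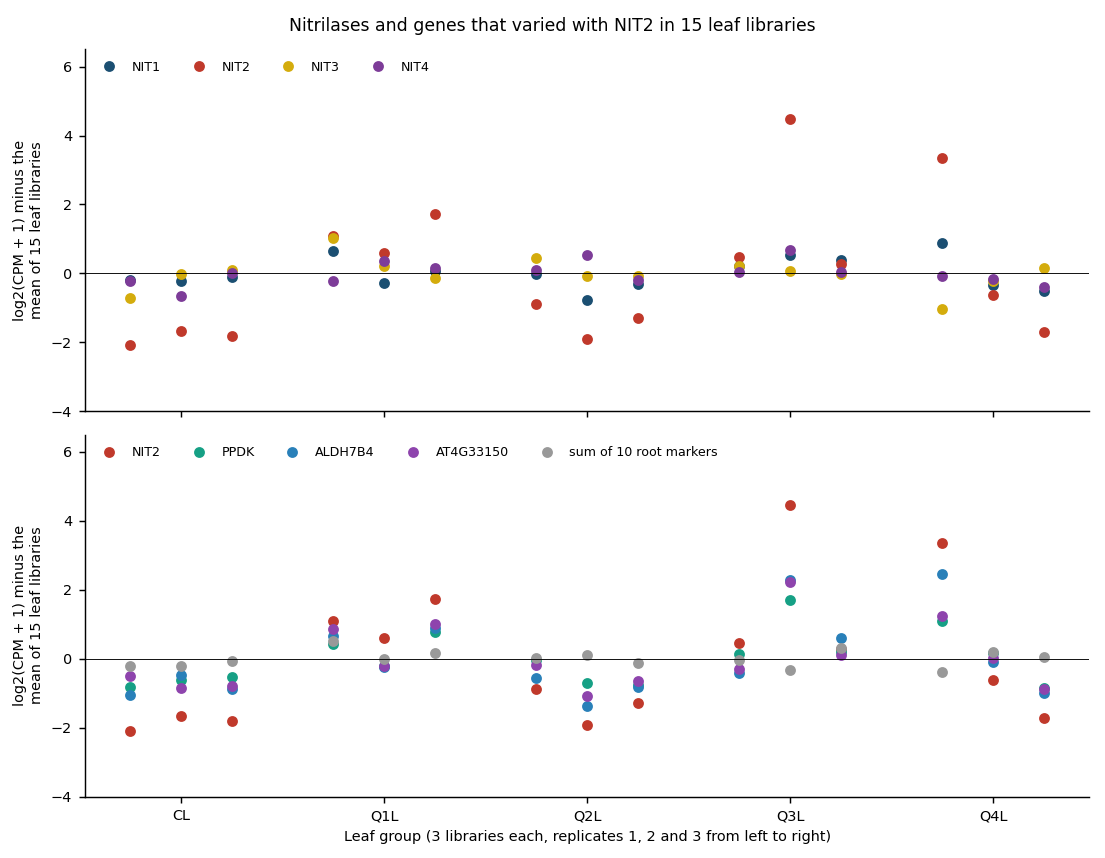
Difference of log2(CPM + 1) from the mean of the 15 leaf libraries, for the 4 members (upper panel) and for NIT2 with PPDK, ALDH7B4, AT4G33150 and the sum of 10 root markers (lower panel). NIT2 is farthest above its mean in the second Q3L and the first Q4L library, where the root marker sum, at 42.8 and 40.9 CPM, is below its mean.

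The comparison of the 4 replicate KFTs with the plate asks what 4 h in the tube does to roots before any other treatment, and NIT3 was lower in the KFTs. The 12 KFT libraries had 104 to 134 CPM of NIT3 (median 118), and the plate libraries had 188, 157 and 189.6 CPM, so the groups did not overlap. The mean of the KFTs was 119 ± 9.28 CPM and that of the plate 178 ± 18.3 CPM (SD, n = 12 and n = 3), a ratio of 0.665. The log2 fold change of the KFTs over the plate was -0.59 ± 0.09 (SE, 95% interval -0.78 to -0.40), with an adjusted p of 0.00382 in edgeR. NIT3 was the only member of the 4 called, where 0.847% of 21958 genes were called, 0.378% as lower and 0.469% as higher. The call was kept when any 1 of the 15 libraries was left out, and was lost with all 45 libraries in 1 fit (adjusted p = 0.298). With the counts of each vessel summed, a comparison of 4 tubes with 1 plate that was added after seeing the data, the adjusted p was 0.0890 and 0.258% of genes were called.

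By single KFT, NIT3 was lower than on the plate by a similar amount in each. Q1A stood at a log2 fold change of -0.55 (adjusted p = 0.288 in edgeR), Q1B at -0.69 (0.207), Q1C at -0.57 (0.601) and Q1D at -0.57 (0.187). No member was called in any single KFT, where 0.0613%, 0.0893%, 0.0471% and 0.17% of genes were called in Q1A, Q1B, Q1C and Q1D. With DESeq2 NIT3 passed in Q1A (adjusted p = 0.0148), Q1B (9.89e-04) and Q1D (0.00199) and was at 0.0804 in Q1C, and NIT1 passed in Q1D (0.0324). The 4 comparisons share the plate libraries and are not independent of each other.

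The other members were closer to the plate. NIT1 had 201 to 314 CPM in the 12 KFT libraries and 298, 367 and 399 CPM on the plate, and its log2 fold change of -0.36 ± 0.12 had an adjusted p of 0.260. NIT2 averaged 133 CPM in the KFTs and 138 CPM on the plate, with a log2 fold change of -0.06 ± 0.12 (adjusted p = 0.945). For NIT4, which had 0.257 to 1.06 CPM in KFTs and 0.385 to 0.566 CPM on the plate, the log2 fold change was 0.14 ± 0.39 (adjusted p = 0.965).

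Sulfur starvation genes, with which NIT3 is known to be induced, were counted in the same comparison. Of 14 tested, 6 fell in the KFTs and 0 rose, where 0.378% of all genes were called as lower, and their median log2 fold change was -0.57, against -0.01 for all genes. SDI1, a repressor of glucosinolate synthesis under sulfur starvation, was at -2.11 ± 0.21 (SE, adjusted p = 2.73e-04 in edgeR). LSU3 and LSU1, of the family induced by low sulfur, were at -1.92 (adjusted p = 0.00147) and -1.75 (0.00601). Of the single KFTs, SDI1 was called in Q1A and Q1B, LSU3 in Q1B and Q1D and LSU1 in Q1D. Of 14 glucosinolate breakdown genes only BGLU28, a thioglucosidase, was called, at -2.70 (adjusted p = 0.0205). Of 11 genes of the cyanide branch only ACO5 was called, at 0.81 (adjusted p = 0.0272). No gene was called among 8 of the indole-3-acetonitrile and camalexin branch, 15 for indole glucosinolates, 11 for auxin synthesis and 11 for early auxin response.

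**Figure D4:**
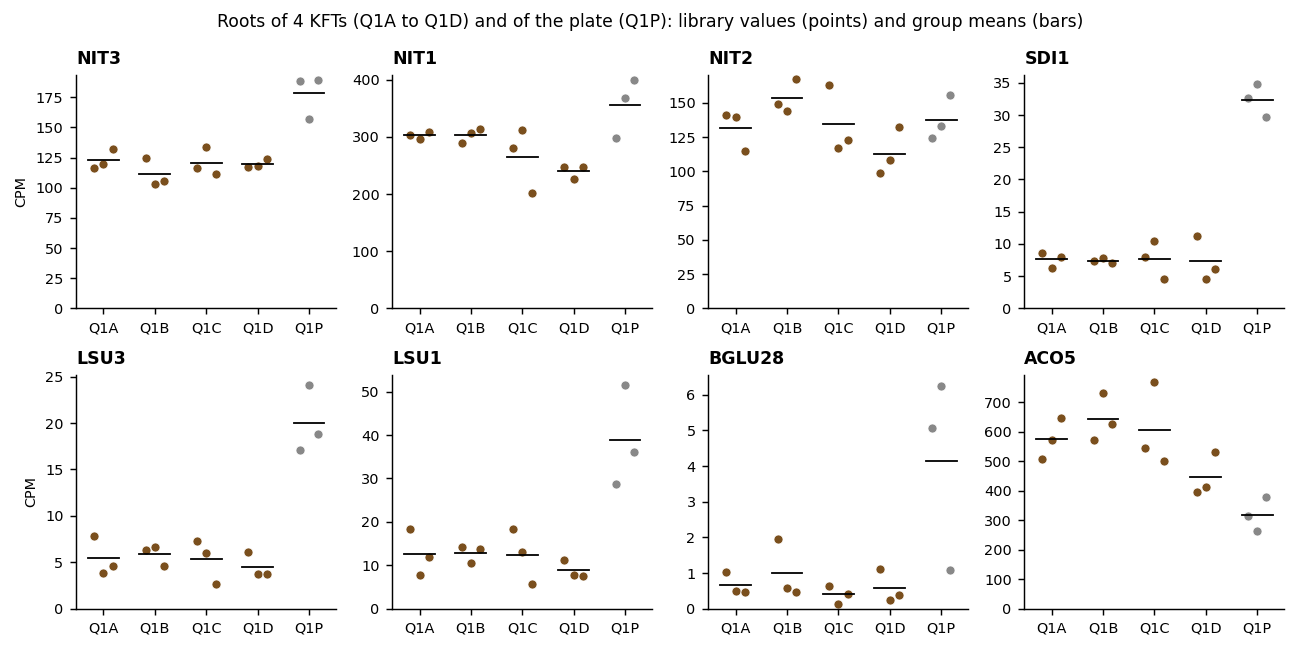
CPM of NIT3, NIT1 and NIT2, of SDI1, LSU3 and LSU1, of BGLU28 and of ACO5 in roots of the 4 KFTs and of the plate, with a point for each library and a bar for each group mean. The 12 KFT libraries had 104 to 134 CPM of NIT3 and the 3 plate libraries 157 to 189.6 CPM.

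Roots of Q1R and of Q1A to Q1D were both held 4 h in KFTs, in different sets of tubes. Between them 27.5% of 22032 genes were called, 12.2% as higher and 15.3% as lower in Q1R. NIT3 averaged 101 ± 14.0 CPM in Q1R and 119 ± 9.28 CPM in Q1A to Q1D (SD), with a log2 fold change of -0.27 ± 0.09 and an adjusted p of 0.0464 in edgeR, and was the only member of the 4 called. This call was lost in 12 of the 15 fits that left out 1 library, and with all 45 libraries in 1 fit (adjusted p = 0.371). NIT1 was at 0.23 ± 0.10 (adjusted p = 0.107), NIT2 at -0.20 ± 0.12 (0.253) and NIT4 at -1.70 ± 0.95 (0.201). NIT1 was called without Q1C replicate 2 (adjusted p = 0.0462) or replicate 3 (0.0490), and NIT4 without Q1R replicate 3 (6.71e-04), which leaves Q1R with no NIT4 read. Markers of both tissues also differed, with 4 of 10 leaf markers called as higher in Q1R and 0 as lower, and 2 of 10 root markers as higher and 1 as lower. The leaf markers summed to 537 to 889.97 CPM in Q1R and 211 to 971 CPM in Q1A to Q1D, and the root markers to 1229 to 1261 CPM in Q1R and 747 to 1292 CPM in Q1A to Q1D. Their part in these values was not tested. Tube and set cannot be told apart in this comparison, and the study proposes that Q1A to Q1D varied little among themselves. Each comparison of single KFTs that follows lies within the set of Q1R. There, tubes of the same time and treatment were not repeated, so a difference between tubes stands unmeasured beside each. Among the equally treated Q1A to Q1D, Q1B had the highest and Q1D the lowest mean of NIT1 and of NIT2. NIT1 had 289 to 314 CPM in Q1B and 226 to 247 CPM in Q1D. NIT2 had 144 to 167 CPM in Q1B and 98.5 to 132 CPM in Q1D. Neither gene overlapped between these tubes, whereas for NIT3 and NIT4 the highest and lowest tubes overlapped.

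Over the time course in roots, NIT2 and NIT3 had higher levels at 4 h 14 min and 4 h 28 min than at 4 h, of which NIT3 was not called by edgeR, and NIT1 was called as lower at 4 h 18 min alone. The root libraries had 142, 102 and 112 CPM of NIT2 in Q1R, 228, 169 and 189 CPM in Q2R, 128, 179 and 133 CPM in Q3R and 198, 171 and 195 CPM in Q4R. Q2R and Q4R did not overlap Q1R, and Q3R did. Throughout, overlap of libraries is a description, since the share of all genes without overlap is not given here. The log2 fold changes of NIT2 against Q1R, which belong to the values that chose it, were 0.76 ± 0.14 in Q2R, 0.37 ± 0.16 in Q3R and 0.72 ± 0.14 in Q4R (SE). These comparisons, and those of the clinostat with Q1R, share the Q1R libraries. Genes of the mitochondrial and plastid genomes made up 1.04% to 1.55% of counted reads in Q2R and 0.988% to 1.81% in Q4R. They made up 0.213% to 0.274% in Q1R, 0.258% to 0.327% in Q3R and 0.309% to 0.363% in CR. The part of this difference in the nitrilase levels of Q2R and Q4R was not tested.

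NIT1 had 356, 338 and 310.5 CPM in Q1R, 425, 428 and 386 CPM in Q2R, 249, 259 and 222 CPM in Q3R and 422, 390.0 and 382 CPM in Q4R. None of the later groups overlapped Q1R, with Q2R and Q4R above it and Q3R below. In Q3R NIT1 fell, with a log2 fold change of -0.40 ± 0.10 (SE) and an adjusted p of 0.0430 in edgeR, and was the only one of the 3 members tested that was called, where 4.54% of 20993 genes were, 1.79% as lower and 2.75% as higher. Tissue markers moved in the same comparison, with 2 of 10 leaf markers and 2 of 10 root markers called as lower in Q3R and none as higher. The leaf markers summed to 279 to 527 CPM in Q3R and 537 to 889.97 CPM in Q1R, and the root markers to 985 to 1243 CPM in Q3R and 1229 to 1261 CPM in Q1R. Their part in the Q3R results was not tested. The NIT1 call is at the threshold and was lost in each of the 6 fits without 1 library, with adjusted p-values of 0.0597 to 0.138, and with all 45 libraries in 1 fit (0.503). In Q2R NIT1 was at 0.34 ± 0.09 (adjusted p = 0.152) and in Q4R at 0.31 ± 0.12 (0.303).

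NIT3 had 85.4, 107 and 112 CPM in Q1R, 123.3, 144 and 136 CPM in Q2R, 109, 121 and 128 CPM in Q3R and 135, 144 and 164 CPM in Q4R. The Q4R and Q2R libraries lay above every Q1R library, and Q3R overlapped it. The log2 fold change was 0.45 ± 0.11 in Q2R (adjusted p = 0.164), 0.29 ± 0.12 in Q3R (0.193) and 0.61 ± 0.14 in Q4R (0.0601). No member was called in Q2R, where 0.363% of genes were, or in Q4R, where 0.913% were. In each of Q2R and Q4R 2 of the 3 members passed an unadjusted p of 0.05, as did 2364 of 21189 genes in Q2R and 2222 of 20912 in Q4R. DESeq2 called NIT1 and NIT3 in Q2R (adjusted p = 0.0134 and 0.0156) and NIT3 in Q4R (0.00162), among 489 and 591 genes. NIT4 had 0, 0 and 0.480 CPM in Q1R, 1.32, 0.303 and 0.667 CPM in Q2R, 2.16, 0.867 and 0.408 CPM in Q3R and 0.174, 0.284 and 2.83 CPM in Q4R. Its adjusted p-values, 0.351 to 0.663, gave no call.

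Among the genes around indole-3-acetonitrile, 3 of 9 tested rose in the roots of Q3R and 0 fell, where 2.75% of all genes were called as higher and 1.79% as lower. They were CYP82C2, which acts on an indole-3-carbonyl nitrile made from indole-3-acetonitrile, at a log2 fold change of 4.20 (adjusted p = 0.00703), CYP71A12, which makes indole-3-acetonitrile from its oxime (2.61, 0.00588), and FOX1, an oxidase of the same route (2.24, 0.00743). Of the indole glucosinolate genes CYP81F2, which hydroxylates indole glucosinolates, rose at 1.16 (adjusted p = 0.0142) and GGP1 at 0.39 (0.0327). In Q4R only CYP71A12 of the nitrile branch was called, at 1.75 (adjusted p = 0.0176), together with ASPGB1, an asparaginase that acts on a product of NIT4, at 1.5 (0.0301). The sulfur starvation gene LSU1 rose in Q2R at 1.48 (adjusted p = 0.0491 in edgeR), where 0.363% of all genes were called. In Q4R it rose at 1.28 (0.0317), where 0.913% were. Other named genes fell in Q3R, namely SULTR1;2 of the sulfur starvation list at -0.46 (0.0416) and PYK10 of glucosinolate breakdown at -0.34 (0.0336).

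In leaves of the time course no member was called at any time, and NIT2 had the largest fold changes. Its leaf values, given above, put every Q2L library below every Q1L library, with a log2 fold change of -2.83 ± 0.41 (SE). In Q3L it was at 2.00 ± 0.99, and at -0.83 when Q3L replicate 2 was left out. In Q4L it was at 0.94 ± 1.25, and at -2.52 when Q4L replicate 1, which carries Q3 in its source name, was left out. A single library set the sign of the change in each of these groups, whereas in Q2L none did.

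NIT1 averaged 661 ± 214 CPM in Q1L, 456 ± 113 in Q2L, 753 ± 86.8 in Q3L and 640 ± 368 in Q4L (SD, n = 3 each), and the later groups overlapped Q1L. Its log2 fold changes were -0.50 in Q2L (adjusted p = 0.839), 0.29 in Q3L (0.999) and 0.11 in Q4L (0.983). NIT3 averaged 12.2 ± 5.62 CPM in Q1L and 6.94 to 9.51 CPM in the later groups, with log2 fold changes of -0.33, -0.28 and -0.74 in Q2L, Q3L and Q4L and adjusted p-values from 0.955 to 0.999. NIT4 moved by -0.26 to 0.27 (adjusted p = 0.956 to 0.999). None of the 3 members tested was called or passed an unadjusted p of 0.05 in Q2L, Q3L or Q4L, and DESeq2 called none. Few genes were called in leaves at all, 0% in Q2L, 0.00979% in Q3L and 0% in Q4L, although 1249 genes in Q2L and 738 in Q4L passed an unadjusted p of 0.05 and DESeq2 called 157 and 45 there. In Q2L all 9 genes tested of the indole-3-acetonitrile and camalexin branch had a negative log2 fold change, with a median of -1.11 against 0.00 for all genes. None was called and 4 passed an unadjusted p of 0.05.

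**Figure D5:**
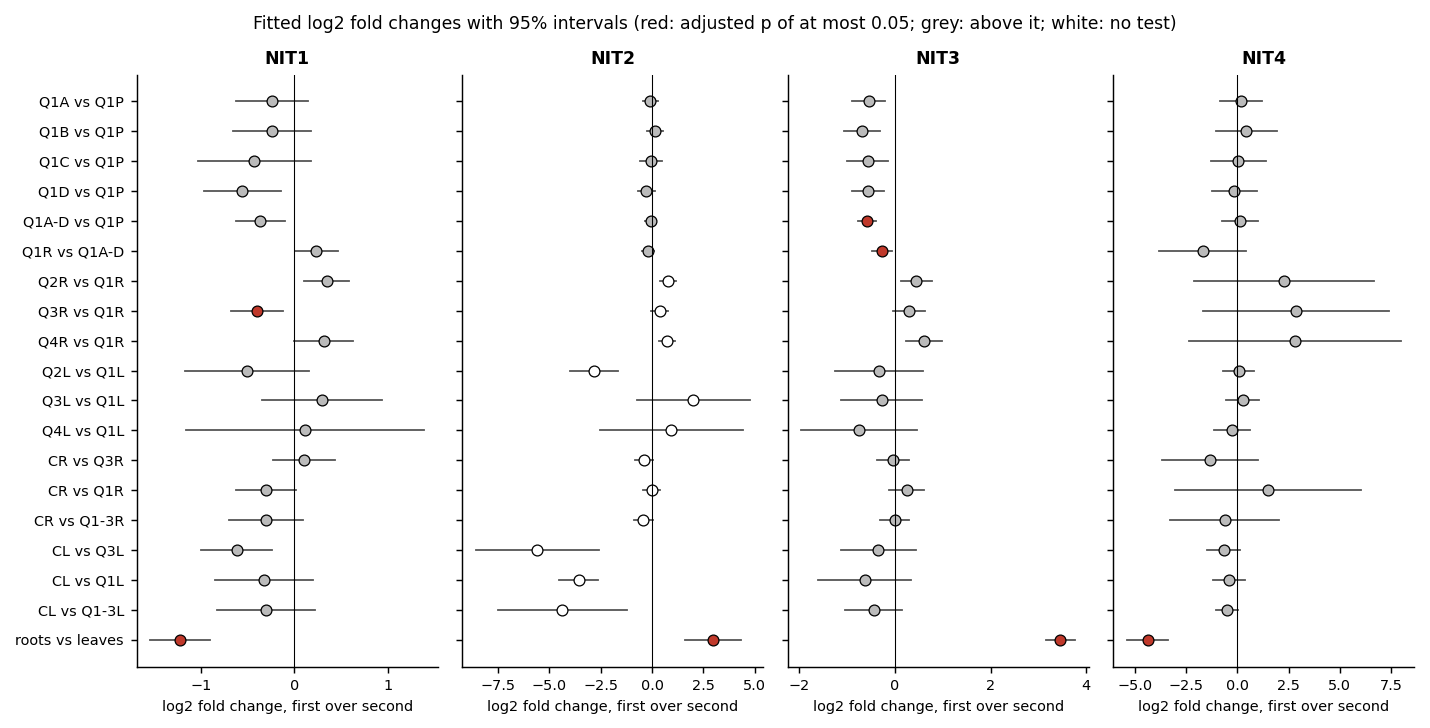
Fitted log2 fold changes, first group over second, with 95% intervals, for each member (panels) and comparison (rows). Red marks an adjusted p of at most 0.05, grey a higher one, and white the values of NIT2 that carry no test. The white points belong to the values that chose NIT2, and their intervals are not a test.

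Clinorotation was compared with Q3, which spent the same time in a KFT. In roots, CR had 125, 95.9 and 121 CPM of NIT2, against 128, 179 and 133 CPM in Q3R, so that every CR library lay below every Q3R library. The log2 fold change of NIT2 was -0.39 ± 0.16 (SE). NIT1 averaged 264 ± 21.1 CPM in CR and 243 ± 19.2 CPM in Q3R (log2 fold change 0.10 ± 0.12, adjusted p = 0.739). NIT3 averaged 117 ± 7.39 CPM in CR and 119 ± 9.08 CPM in Q3R (-0.04 ± 0.12, adjusted p = 0.899). NIT4 was at -1.35 ± 0.84 (adjusted p = 0.499). No member was called in CR against Q3R, where 0.00475% of genes were, against Q1R (1.6%) or against Q1R, Q2R and Q3R pooled (0.0409%), and DESeq2 called none. At an unadjusted p of 0.05, 0, 1 and 0 of the 3 members passed in these comparisons, as did 2924, 3783 and 2840 of all genes. DESeq2 called 419, 1311 and 384 genes there. Against Q1R, NIT1 was at -0.30 ± 0.12 (adjusted p = 0.193) and NIT3 at 0.24 ± 0.13 (0.363). CYP82C2 and CYP71A12 were again called against Q1R, at 3.79 and 2.08, while no gene of that branch was called against Q3R.

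In clinostat leaves NIT1 was lower than at Q3, a difference that edgeR did not call, and NIT2 had its lowest mean of all groups, at 1.89 CPM. CL had 508, 492 and 532 CPM of NIT1, against 665, 839 and 756 CPM in Q3L, and the groups did not overlap. The log2 fold change was -0.62 ± 0.14 (SE), with an adjusted p of 0.251 in edgeR and 0.00998 in DESeq2, and NIT1 was called in edgeR when Q3L replicate 1 was left out (0.0381). NIT4 had 8.57, 6.08 and 10.4 CPM in CL and 10.6, 17.1 and 10.49 CPM in Q3L, also without overlap, at -0.67 ± 0.30 (adjusted p = 0.685). NIT3 was at -0.35 ± 0.28 (adjusted p = 0.881). No gene was called between CL and Q3L (0%), although 1460 genes passed an unadjusted p of 0.05, 2 of the 3 members among them, and DESeq2 called 131 genes, NIT1 among them. The log2 fold change of NIT2 was -5.58 ± 1.08 against Q3L and -2.75 without Q3L replicate 2. Against Q1L, where no library of either group stood apart, it was -3.58 ± 0.35. Against Q1L, Q2L and Q3L pooled it was -4.38 ± 1.41, and -2.77 without Q3L replicate 2. NIT1, NIT3 and NIT4 were not called against Q1L, where 0.0682% of genes were (adjusted p = 0.786 to 0.863), or against the pooled leaves, where 0% were (0.967 to 1.00).

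The difference between tissues in the response was estimated as an interaction, the log2 fold change in roots minus that in leaves. For NIT2, where it belongs to the values that chose the gene, it was 3.61 ± 0.48 at Q2 (SE), -1.65 ± 1.22 at Q3, -0.22 ± 1.41 at Q4 and 5.22 ± 1.26 for C against Q3. Without the 1 leaf library that stood apart it was 1.17 at Q3, 3.22 at Q4 and 2.38 for C against Q3. At Q4 that library is the one with Q3 in its source name. None of NIT1, NIT3 and NIT4 was called in an interaction, where 0.0977% of genes were called at Q2, 0.0089% at Q3, 0.00889% at Q4 and 0.0311% for C against Q3. Of the 3 members 1 passed an unadjusted p of 0.05 in each interaction, as did 2387, 2378, 1402 and 2765 genes at Q2, Q3, Q4 and for C against Q3, of 22484 to 22509 tested. For C against Q3, NIT1 was at 0.74 ± 0.20 in edgeR (adjusted p = 0.204). DESeq2 called NIT1 there at 0.71 (adjusted p = 0.0216 in DESeq2), among 430 genes.

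Across the 15 groups ordered by mean CPM, most neighbours were not apart. NIT1 ran from 240.0 CPM in Q1D to 753 CPM in Q3L, and the ranges of all 14 pairs of neighbours overlapped. NIT2 ran from the clinostat leaves to 195 CPM in Q2R, and 12 of 14 pairs overlapped, the exceptions being Q4R above Q1B and Q1L above Q2L. For NIT3, which was highest on the plate, 13 of 14 pairs overlapped and the break lay between Q1R and Q1L, the lowest roots and the highest leaves. For NIT4 13 of 14 pairs overlapped and the break lay between CL, the lowest leaves, and Q3R, the highest roots.

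The genes whose pattern was most like that of each member were taken by Pearson's r of group means, log2(CPM + 1), over the 15 groups, among 19747 genes. These values describe 10 root and 5 leaf groups and hold the difference between the tissues. NIT1 was closest to SQE3, a squalene epoxidase (0.96), and to ZTL, a light receptor of the clock (0.96). NIT2 was closest to CHX17, a cation/proton exchanger (0.98), CAX3, a vacuolar calcium exchanger (0.98), AT4G20860 (0.98), AT1G51850 (0.98) and WNK4 (0.98). NIT3 was closest to MVD1, of the mevalonate route, ABCB4, an auxin transporter, MSRB7 and RCI2B, each at 1.00 after rounding. The fifth, AT3G44326, lies 5067 bases past NIT3 on the same chromosome. NIT4 was closest to OPT1, a peptide transporter (0.99). Among the members themselves NIT2 and NIT3 had an r of 0.92 over the 15 groups, NIT1 and NIT4 0.85, NIT1 and NIT2 -0.63 and NIT3 and NIT4 -0.97.

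With the tissue mean subtracted, over the 10 root and leaf groups of the time course and clinostat, other genes were closest. NIT1 was then most like CYP71B19 (0.97), which was also among its first 5 before, and COR413-PM2 (0.97). NIT2 was most like ATL15, a ubiquitin ligase (0.98), AT4G15610 (0.98), AT2G28120 (0.97), PDF1.4 (0.97) and AT3G24420 (0.96). AT4G15610 was also among the 8 genes most like NIT2 over single leaf libraries, with 247 CPM in Q3L replicate 2 and 262 CPM in Q4L replicate 1, against 3.75 to 115 CPM in the other leaf libraries. Both rankings draw on the same leaf libraries, so a gene in both is not an independent finding. The NIT2 means of Q3L and Q4L rest largely on Q3L replicate 2 and Q4L replicate 1. The variation of NIT2 over these groups also belongs to the values that chose it. NIT3 was most like AT4G29050 (0.94) and NIT4 most like UBP27 (0.91). Within tissues NIT1 and NIT2 had an r of 0.70, NIT3 and NIT4 0.72 and NIT2 and NIT3 0.43. The order among members thus depends on whether the difference between roots and leaves is left in.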

How the data were processed

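Poly(A) RNA of roots and leaves was sequenced as directional paired-end libraries in 1 NovaSeq lane. Per the labels and the study's methods, the authors trimmed reads with cutadapt, mapped them to TAIR10 with STAR, removed PCR duplicates, and counted reads that mapped to 1 place per gene with HTSeq. The strand setting of the counting is not given in the sources used here. The deposited tables hold these raw counts per gene and library. The 24 tables repeat libraries, and the 2955609 repeated values did not differ between tables. The deposited tables also hold the authors' own fold changes and p-values, which were not used.

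CPM is the count divided by the library total and scaled to a common total, and CPM per kilobase divides it by the length of the RefSeq transcript. Only the libraries of a comparison entered its fit, in edgeR 4.0.16 under R 4.3.3, with the filterByExpr low-count filter, TMM normalization and the quasi-likelihood test. Adjusted p-values are Benjamini-Hochberg values over all genes tested, and a gene was called at an adjusted p of at most 0.05. A log2 fold change has the first group named on top, and its SE was taken from the quasi-likelihood F. The test was also run on simulated counts, drawn independently for each library. These held no difference between vessels, so they cannot check p-values for libraries that share a vessel. Alternatives were DESeq2 1.42.0, no low-count filter, a log2 fold change of at least 1 as well, a replicate block, all 45 libraries in 1 fit, TMM-normalized levels and each library left out in turn. Summing counts per vessel, leaving out one or both leaf libraries with much NIT2 and the likeness over leaf libraries were chosen after seeing the data. Counts of 0 allow up to 3 reads, and this floor covers counting error only. Whether the libraries of groups overlapped was described for the members alone and has no share over all genes beside it.

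The members and gene lists were chosen with earlier results of these data known. The 4 members are named throughout. From each list, up to 3 members are named per comparison, those with the greatest fold change among the called ones, and CYSC1, TGG4 and TGG5 were added after their values were seen. For likeness, the 5 genes with the highest Pearson's r and a mean of at least 1 CPM were taken. Gene names matched RefSeq for 28285 of 28545 genes, and coordinates and sequences are from RefSeq TAIR10.1.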

Additional observations from a re-analysis of the deposited data

How the results depend on the processing

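Counts of called members were of 4 against the plate, between sets of tubes and between roots and leaves, and of 3 elsewhere. With DESeq2 the count was 1 in Q1A, 1 in Q1B and 2 in Q1D against the plate, 2 in Q2R and 1 in Q4R against Q1R, 1 in CL against Q3L and 1 in the interaction of C against Q3, where edgeR called 0 in each. Of all genes DESeq2 called 294, 353, 316, 489, 591, 131 and 430 in these comparisons, in that order. A log2 fold change of at least 1 as well left 0 called in Q1A to Q1D against the plate, 0 in Q1R against Q1A to Q1D and 0 in Q3R against Q1R, and so did all 45 libraries in 1 fit (NIT3 adjusted p = 0.298 and 0.371, NIT1 0.503). Without the low-count filter 0 were called in Q1R against Q1A to Q1D (NIT3 adjusted p = 0.0501) and 1 in Q4R (NIT3, 0.0153). Counts summed per vessel left 0 called in Q1A to Q1D against the plate. Leaving out 1 library gave 0 to 2 in Q1R against Q1A to Q1D, 0 in each of 6 fits for Q3R and 0 to 1 for CL against Q3L. DESeq2 gave no adjusted p for NIT2 in roots against leaves. TMM-normalized library sizes moved 14 of the group levels by more than their SD.

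Libraries with the same replicate number were on average little alike across groups. Mean r was 0.0556 for plate and tubes, 0.0105 in roots, 0.0011 in leaves and 0.0384 between root and leaf of a condition. Libraries of other numbers gave -0.0267, -0.0051, 6.2e-04 and -0.0193. For plate and tubes single pairs ran from -0.372 to 0.415, with 10 of 30 above 0.1. A low r cannot exclude that root and leaf libraries of a number share plants, and the main fits did not pair them. A replicate block gave 0 called members in Q1R against Q1A to Q1D and in Q3R, 1 in Q4R (NIT3), and turned the uncalled log2 fold changes of NIT4 in Q1C to -0.044 and of NIT1 in Q4L to -0.051. For NIT2, which has no test there, it gave 0.37 in Q3L, -1.03 in Q4L and 0.74 in the interaction at Q4, in place of 2.00, 0.94 and -0.22. The block left the other calls of members as they were. For NIT3 in CR against the pooled roots, all 45 libraries in 1 fit gave 0.0088.

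Other values that changed sign with 1 library left out were all uncalled. Against the plate, NIT2 ran from -0.15 to 0.032 in Q1A, -0.23 to 0.048 in Q1C and -0.16 to 0.035 in the 4 KFTs, and NIT4 from -0.061 to 0.82 in Q1B, -0.39 to 0.34 in Q1C, -0.29 to 0.040 in Q1D and -0.028 to 0.27 in the 4 KFTs. Against Q1L, NIT3 ran from -0.56 to 0.071 in Q2L and -0.51 to 0.11 in Q3L, NIT4 from -0.15 to 0.22 in Q2L and -0.031 to 0.43 in Q3L, and NIT1 from -0.60 to 0.40 in Q4L. In CR, NIT3 ran from -0.11 to 3.4e-04 against Q3R and -0.059 to 0.053 against the pooled roots. The interaction ran from -0.094 to 0.89 for NIT1 at Q4 and from -1.03 to 0.17 for NIT4 with C against Q3. Depth limited NIT4 in roots, where 30 libraries held 0 to 190 reads of it.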
